A study of Mus musculus with 4 samples.

Results

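The genes described here carry the replication stress checkpoint and the repair of damaged replication forks and double-strand breaks. They were taken by symbol from a list of 45 that was drawn up with earlier results of these data known, although no measured value enters the rule. The list covers the ATR-CHK1 checkpoint, fork protection, homologous recombination and the Fanconi pathway. Of these, 44 had a row in the count tables, among 24421 rows in all, and all 44 passed the filter on low counts, as did 13669 genes in total. The symbol Claspn matched no row. The tables name the gene for the CHK1 adaptor claspin Clspn, and its values are given beside the others without being counted among the 44.

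RNA was sequenced in bulk from subcutaneous tumours of J558, a mouse plasmacytoma line that the labels describe as B lymphocyte, grown in female BALB/c mice. The mice received by mouth either 0.5% methylcellulose (Vehicle, n = 2) or TAK-931 at 60 mg/kg (n = 2), once daily, and tumours were taken at day 6. All 4 tumours thus came from 1 cell line in a host that keeps its immune system, and no untreated tumour, earlier time or lower dose was compared. TAK-931 inhibits CDC7, the kinase that phosphorylates the MCM helicase so that replication origins can fire, and the comparison asks which transcripts of the checkpoint and repair machinery differed between treated and vehicle tumours.

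When a replication fork stalls, single-stranded DNA accumulates and recruits the kinase ATR with its partner ATRIP. ATR activates CHK1, which holds back mitosis and further origin firing, while the fork protection complex keeps helicase and polymerase together. Broken ends are instead sensed through the MRE11-RAD50-NBN complex and the kinase ATM, and are repaired by homologous recombination after resection, or by end joining. The Fanconi pathway unhooks DNA interstrand crosslinks and also protects stalled forks. Much of this network is controlled by phosphorylation and ubiquitination of proteins, which transcript levels do not measure. Many of its genes are transcribed mainly in cells passing through S phase, so that their RNA in a tumour also follows how many of its cells divide.

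The TAK-931 libraries differed far more from each other than the Vehicle libraries did, and TAK-931-1 stood apart. Library totals ranged from 16487902 to 19589339 counts. Across the 13669 genes tested, log2 CPM (counts relative to library size, scaled by TMM factors) gave a Pearson's r of 0.977 between the Vehicle libraries and 0.865 between the TAK-931 libraries, taken over genes rather than over samples. Over the 44 genes, the median size of the log2 ratio was 0.109 between the Vehicle libraries and 0.725 between the TAK-931 libraries. Fitted values and group medians are therefore shown with and without TAK-931-1.

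TAK-931-1 also differed in its cell type markers. The summed CPM of 15 plasma cell and J558 genes was 17340 and 17600 in the Vehicle libraries, 6857 in TAK-931-1 and 20070 in TAK-931-2. Jchain and Pou2af1 were the largest parts of the sum and moved apart in TAK-931-2. Jchain had 8124 CPM there against 5080 and 5657 in Vehicle, and Pou2af1 had 3999 against 5222 and 4875. As many as 14 of the 15 were below both Vehicle libraries in TAK-931-1 against 7 of 15 in TAK-931-2. Of all genes tested, 47.4% were below both and 46.1% above both in TAK-931-1, and 44.4% and 42.3% in TAK-931-2. Genes of dividing cells, a list of 12, summed to 2735 and 2472 in Vehicle, 1730 in TAK-931-1 and 2753 in TAK-931-2, with 11 of 12 below both Vehicle libraries in TAK-931-1. In TAK-931-2, 6 of 12 were below both and 3 above both, among them the proliferation marker Mki67 at 1006 CPM against 761 and 614 in Vehicle. Markers of several host cell types were instead higher in TAK-931-1. T cell genes (10 of 10 above both Vehicle libraries in each TAK-931 library) summed to 35.2 and 22.2 in Vehicle, 1388 in TAK-931-1 and 100.2 in TAK-931-2. Monocyte and macrophage genes, again 10 of 10 in each, summed to 668 and 557, 9413, and 1720. Fibroblast genes, 8 of 8 higher in TAK-931-1 and 6 of 8 in TAK-931-2, summed to 1887 and 2143, 14830, and 5107. Endothelial genes (6 of 6 in TAK-931-1) reached 803 there, against 224 and 241 in Vehicle and 236 in TAK-931-2, and skeletal muscle genes (5 of 5) reached 556, against 81.6 and 85.8, and 11.4. Of the smaller lists, NK cell genes summed to 31.1 and 17.6 in Vehicle, 160.4 in TAK-931-1 and 46.0 in TAK-931-2, neutrophil genes to 13.8 and 14.6, 131 and 23.3, and adipocyte genes to 45.1 and 67.7, 263 and 28.7. Single genes carried the latter sums, with Csf3r at 115 and 15.1 CPM in TAK-931-1 and TAK-931-2 while S100a8 and Cxcr2 had no count in TAK-931-2, and with Fabp4 at 255 CPM in TAK-931-1. Of the genes that passed the filter, 4 of 4 NK cell, 3 of 4 neutrophil and 1 of 2 adipocyte genes were above both Vehicle libraries in TAK-931-1, against 3, 2 and 0 in TAK-931-2. The NK cell marker Klra8 had no count in any library. In bulk RNA, fewer cells of a type and less RNA per cell cannot be told apart. The part of these markers in the values below was not tested, other than by the rescaling given further on.

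**Figure D1:**
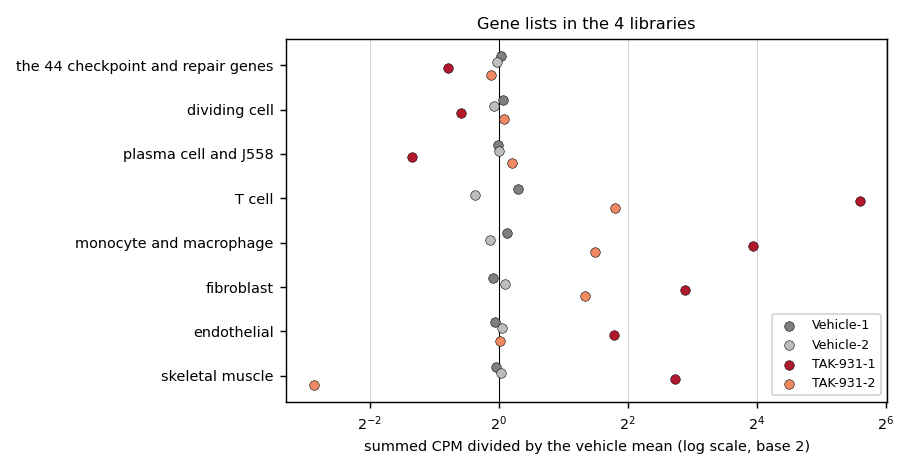
Summed CPM of the 44 checkpoint and repair genes and of 7 marker lists in each library, divided by the mean of the Vehicle libraries on a log axis, with 1 point per library. TAK-931-1 has the lowest value for the 44 genes (1605 CPM), dividing cells (1730) and plasma cells with J558 (6857), and the highest for all 5 host cell lists.

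The 44 genes covered a wide range of transcript levels. Per transcript length, as TPM (counts per length, scaled to the same sum in every library) averaged over the Vehicle libraries, the highest were Tipin at 207 ± 18.9, which encodes the partner of TIMELESS in the fork protection complex, and H2afx at 206 ± 5.98, the gene for the histone variant phosphorylated around breaks (SD, n = 2). Their ranges overlapped. They were followed by Parp1 at 155 ± 3.95 and Topbp1, the activator of ATR, at 75.0 ± 0.754, each apart from its neighbours. The genes below them ran from Timeless at 47.9 ± 3.77 to Fanci at 8.48 ± 0.0357 in a graded series, in which most neighbours lay within the Vehicle range of each other. The lowest were Brca2 at 5.92 ± 0.331 and the kinase gene Atm at 3.70 ± 0.471, which did not overlap. Clspn is not part of this order.

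E2F factors, which switch on replication and repair genes at the start of S phase, have short recognition motifs. The places where these letters occur near the members' start sites are printed here as a description. RefSeq promoters (GRCm38.p6, the mm10 build, 250 bases before to 50 after each start) were found for 32 of the 44 genes, giving 35 promoters, of which 34 started within 1000 bases of the gene's 5′ end in the count tables. Either TTTNGCGC or TTTCCCGC, on either strand, was in 8 of 35 promoters (22.9%), belonging to 7 genes, in 4.07% of the 13141 promoters of tested genes and in 2.39% of all 32851 promoters. The 30 bases around each match follow, 5′ to 3′ on the strand of the gene, with the match in capitals. GCGGGAAA and GCGCGAAA are the motifs as read from the opposite strand.
Chek2, start of the match at 6 bases after the start site (chr5:110839977-110840006, plus strand): gtatccgtaggTTTAGCGCcactccactgg
Chek2, match at −152 (chr5:110839820-110839849, plus strand): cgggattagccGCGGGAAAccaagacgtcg
Rad51c, match at 12 (chr11:87404477-87404506, minus strand): gtttccagcgcTTTCGCGCctcttgctcta
Rad51c, match at −5 in its other promoter (chr11:87404941-87404970, minus strand): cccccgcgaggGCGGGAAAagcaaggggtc
Mdc1, match at −16 (chr17:35841471-35841500, plus strand): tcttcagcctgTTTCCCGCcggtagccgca
Brca2, match at −168 (chr5:150522442-150522471, plus strand): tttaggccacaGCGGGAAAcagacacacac
Bard1, match at −209 (chr1:71103163-71103192, minus strand): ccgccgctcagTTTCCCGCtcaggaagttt
Etaa1, match at −11 (chr11:17953868-17953897, minus strand): gaagcagcgtaTTTTGCGCgcccgacttgc
Topbp1, match at −129 (chr9:103305187-103305216, plus strand): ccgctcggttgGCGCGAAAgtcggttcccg

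A letter match is a description and does not show that a factor binds. Of the 8 genes lower at an unadjusted p under 0.05, named in the next paragraph, 5 had a promoter to search. The other motifs searched occurred at shares nearer to those of tested genes. The CHR letters TTTGAA or TTCGAA were in 5 of 35 promoters (14.3%, against 13.9% for tested genes and 19.2% of all promoters). The NF-Y letters CCAAT were in 17 of 35 (48.6%, against 37.5% and 37.4%), and the SP1 letters GGGCGG in 22 of 35 (62.9%, against 60.5% and 35.7%). Matches of GGGCGG and GCGGGAAA can share bases.

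No gene of the 44 differed between Vehicle and TAK-931 at an adjusted p under 0.05 in edgeR's quasi-likelihood test, and none of the 13669 genes tested did (0% called). The lowest adjusted p was 0.275. At an unadjusted p under 0.05, 8 of the 44 genes were lower in TAK-931 (18.2%, against 6.55% of all genes tested) and 0 were higher (against 11.6% of all genes). The 8 were Tipin, Chek2, H2afx, Mdc1, Rbbp8, Rad51c, Rad51ap1 and Mus81. The number lower was 0 when either Vehicle library was left out (against 0.356% of all genes without Vehicle-1 and 0.459% without Vehicle-2), 14 without TAK-931-1 (against 22.6%) and 37 without TAK-931-2 (against 32.1%). The fitted log2 fold change was below 0 for 38 of 44 genes, or 86.4%, where 49% of all genes were. Its median was −0.38 over the 44 genes and 0.02 over all genes tested, and it turned to 0.21 and 0.77 when the libraries were scaled to the plasma cell and J558 genes instead.

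In both TAK-931 libraries, 25 of the 44 genes were lower than in both Vehicle libraries (56.8%, against 32.7% of all genes). Only 2 genes, Palb2 and Rad54l, were higher in both (4.55%, against 30%). Taken separately, TAK-931-1 was below both Vehicle libraries for 40 genes (90.9%, against 47.4%) and above both for 3 (against 46.1%). TAK-931-2 was below both for 26 genes (59.1%, against 44.4%) and above both for 16 (36.4%, against 42.3%). Against the mean of the Vehicle libraries, the median log2 ratio over the 44 genes was −0.89 for TAK-931-1 and −0.19 for TAK-931-2, where over all genes tested it was −0.02 and −0.01. TAK-931-1 was lower than TAK-931-2 for 40 of the 44 genes, and for 49.6% of all genes. With scaling to the plasma cell and J558 genes, which shifts all genes of a library alike, the median over the 44 genes was 0.45 for TAK-931-1 and −0.39 for TAK-931-2, and over all genes 1.32 and −0.21. The median of the 44 genes minus that of all genes was −0.87 and −0.18 on this scale and −0.88 and −0.18 with TMM.

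**Figure D2:**
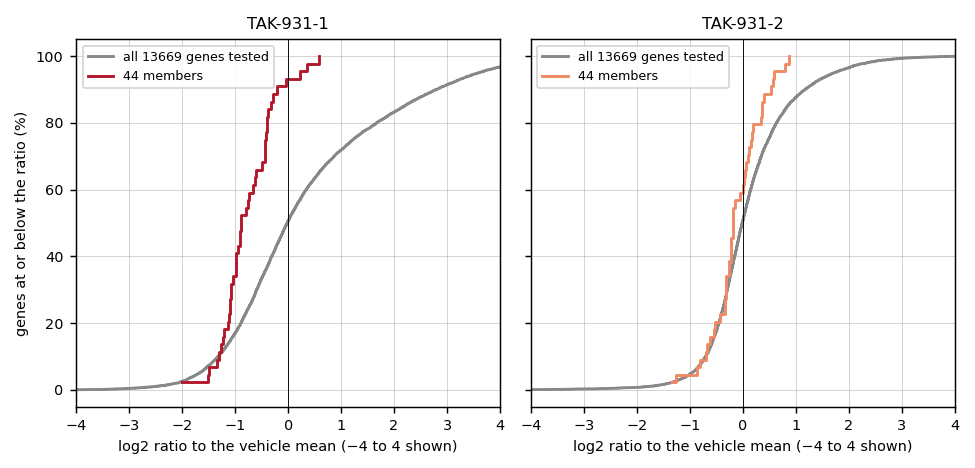
Share of genes (%, vertical axis) at or below each log2 ratio of CPM to the Vehicle mean (horizontal axis), for the 44 checkpoint and repair genes and all 13669 genes tested, in TAK-931-1 on the left and TAK-931-2 on the right. The curve of the 44 genes lies to the left of all genes over most of its range in TAK-931-1 (median −0.89) and close to it in TAK-931-2 (median −0.19). When scaled to plasma cell and J558 genes, the medians were 0.45 and −0.39, against 1.32 and −0.21 for all genes.

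Most of the genes followed 1 of 2 patterns. In the first, both TAK-931 libraries were lower than Vehicle, as in the 8 genes named above. In the second, TAK-931-1 was below both Vehicle libraries and TAK-931-2 above both. The second pattern held for 13 genes, Atr, Atrip, Topbp1, Wee1, Trp53bp1, Exo1, Xrcc3, Eme1, Slx4, Fancb, Fancd2, Parp1 and Polq (29.5%, against 9.91% of all genes).

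**Figure D3:**
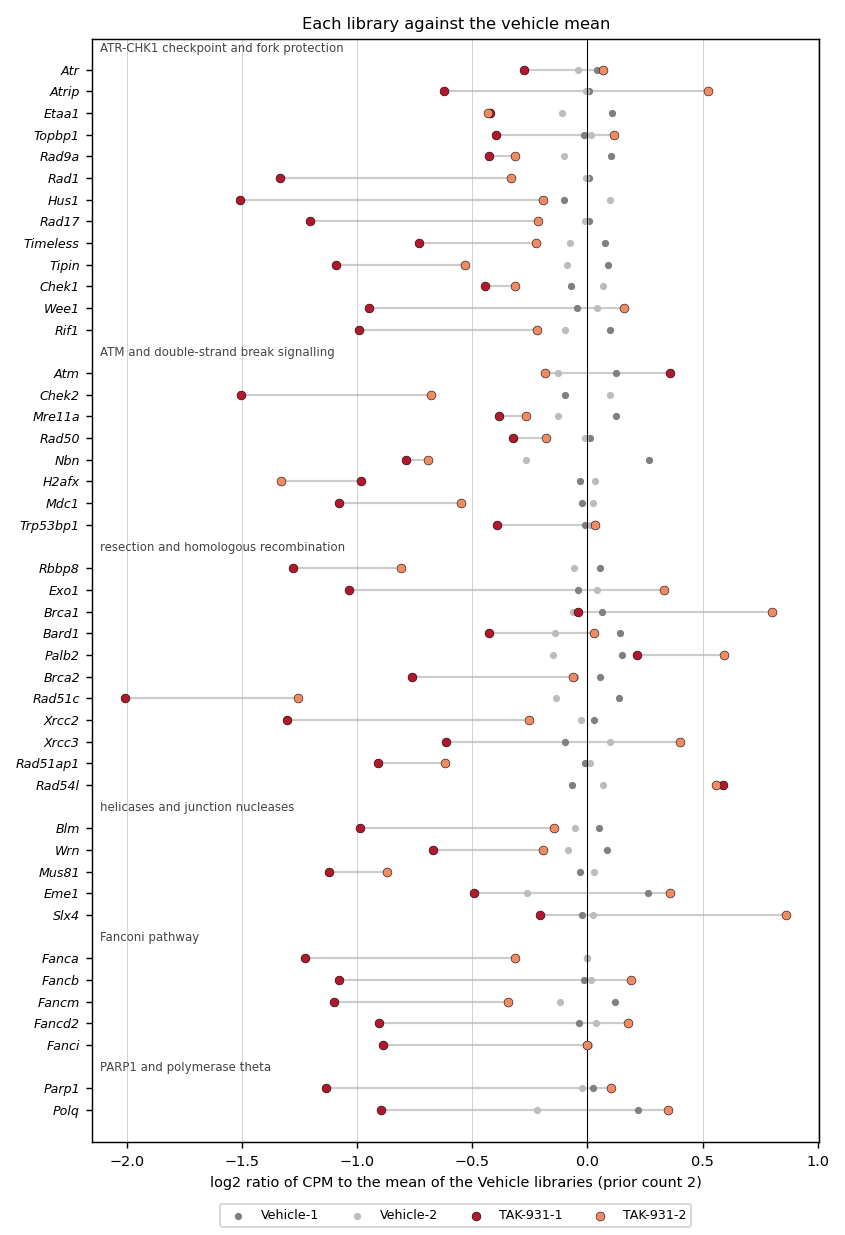
Log2 ratio of CPM to the mean of the Vehicle libraries (prior count 2) for each of the 44 genes, by role, with 1 point per library and a line joining the TAK-931 libraries. TAK-931-1 lies to the left of TAK-931-2 for 40 genes, and for 13 genes the line crosses from below to above both Vehicle points.

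Among the 13 genes of the ATR-CHK1 checkpoint and fork protection, 1 was lower at an unadjusted p under 0.05, 9 were lower in both TAK-931 libraries than in both Vehicle libraries, and 0 were higher in both, where the shares of all genes were 6.55%, 32.7% and 30%. The median log2 fold change was −0.43, and −0.23 without TAK-931-1. Tipin (chromosome 9, 64281607 to 64304792, mm10) had 150.4 and 133 CPM in the Vehicle libraries, 66.3 in TAK-931-1 and 97.7 in TAK-931-2. The groups did not overlap, and TAK-931-1 was the lowest. The log2 fold change was −0.79 (SE 0.28, unadjusted p = 0.045, adjusted p = 0.275 by edgeR) and −0.54 without TAK-931-1. For Tipin, the unadjusted p was above 0.05 in edgeR with library size alone (0.066) and in DESeq2 (0.060). Timeless (chromosome 10, 128232063 to 128252941) encodes the other subunit of that complex, and had 129 and 116 CPM in Vehicle, 73.4 in TAK-931-1 and 105 in TAK-931-2. The fitted log2 fold change came to −0.46 (SE 0.27), and −0.23 without TAK-931-1.

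The kinase genes of this pathway were Atr, Chek1 and Wee1. Atr (chromosome 9, 95857597 to 95951644) had 57.5 and 54.3 CPM in Vehicle, 46.0 in TAK-931-1 and 58.5 in TAK-931-2, so the groups overlapped, with a log2 fold change of −0.10 (SE 0.23), and 0.06 without TAK-931-1. Chek1 (chromosome 9, 36708482 to 36726658), the gene for CHK1, had 35.5 and 39.1 CPM in Vehicle, 27.3 in TAK-931-1 and 29.9 in TAK-931-2. Both TAK-931 libraries were below Vehicle and near each other, with a log2 fold change of −0.38 (SE 0.23, unadjusted p = 0.162), and −0.32 without TAK-931-1. Wee1 (chromosome 7, 110122059 to 110143299) encodes the kinase that restrains CDK1 before mitosis. It had 53.1 and 56.5 CPM in Vehicle, 28.3 in TAK-931-1 and 61.2 in TAK-931-2, on opposite sides of Vehicle. The log2 fold change was −0.29 (SE 0.42), and 0.16 without TAK-931-1. Clspn (chromosome 4, 126556980 to 126593903) had 72.9 and 60.4 CPM in Vehicle, 55.0 in TAK-931-1 and 71.8 in TAK-931-2, with a log2 fold change of −0.07 (SE 0.25), and 0.11 without TAK-931-1. Its promoter also held an E2F match, at 22 bases after the start site.

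None of the sensor genes had an unadjusted p under 0.05. With TMM scaling, the genes of the RAD9A-RAD1-HUS1 clamp and of its loader RAD17 were all below both Vehicle libraries in each TAK-931 library. In TAK-931-1 they were at 0.740, 0.395, 0.350 and 0.433 times the Vehicle mean, and in TAK-931-2 at 0.801, 0.793, 0.872 and 0.862 times, in the order Rad9a, Rad1, Hus1 and Rad17. Of the exon bases of Rad9a, 10.9% are shared with Ppp1ca on the opposite strand. The next genes encode activators of ATR. In TAK-931-1 and TAK-931-2, Etaa1 was at 0.743 and 0.739 times the Vehicle mean and Topbp1 at 0.759 and 1.08 times. Atrip, the ATR partner, was at 0.648 and 1.44 times, on opposite sides of Vehicle. Rif1, which protects forks and ends from resection, was at 0.502 and 0.857 times.

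**Figure D4:**
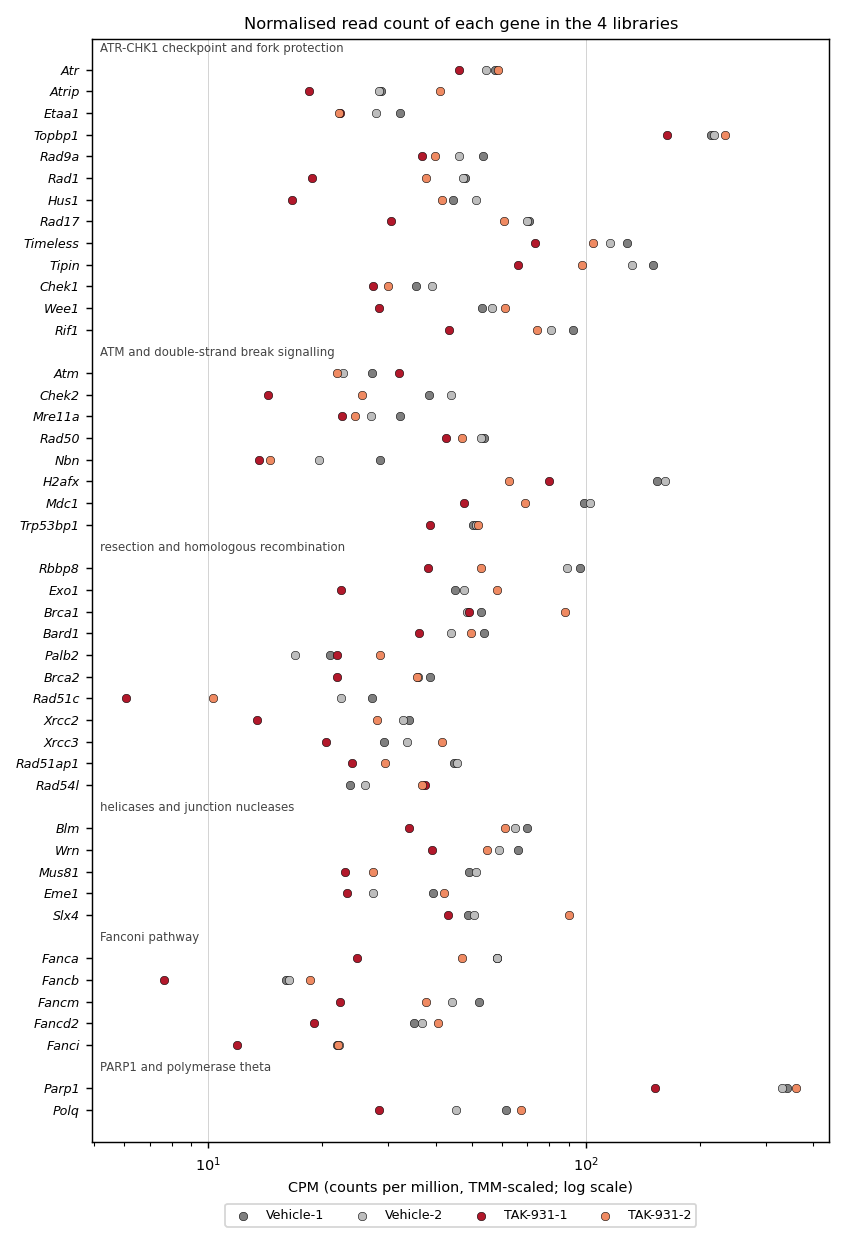
Normalised read count of each of the 44 genes in CPM on a log axis, by role, with 1 point per library. H2afx, Rbbp8, Rad51c and Mus81 show both TAK-931 points clearly below both Vehicle points, while Parp1 has TAK-931-1 at 153 CPM and the other 3 libraries between 330 and 359.8. CPM is not divided by transcript length, so levels compare within a gene only.

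Of the 8 genes of ATM and double-strand break signalling, 3 were lower at an unadjusted p under 0.05 (6.55% of all genes) and 6 were lower in both TAK-931 libraries (32.7% of all genes). The median log2 fold change was −0.55, and −0.41 without TAK-931-1. H2afx (chromosome 9, 44334715 to 44336073) had 154.6 and 162 CPM in Vehicle, 79.9 in TAK-931-1 and 62.8 in TAK-931-2. Here TAK-931-2 was the lower of the pair, as in Atm and, by a small margin, Etaa1 and Rad54l. The log2 fold change was −1.15 (SE 0.23, unadjusted p = 0.0061, adjusted p = 0.275 by edgeR) and −1.34 without TAK-931-1. DESeq2 gave H2afx an adjusted p of 0.0288.

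Chek2 (chromosome 5, 110840017 to 110874133) encodes the kinase CHK2, the main effector of ATM. It had 38.4 and 44 CPM in Vehicle, 14.4 in TAK-931-1 and 25.6 in TAK-931-2. Its groups did not overlap, with a log2 fold change of −1.04 (SE 0.37, unadjusted p = 0.043), and −0.69 without TAK-931-1. Mdc1 (chromosome 17, 35841498 to 35859670), the gene for the adaptor that binds phosphorylated H2AX, had 99.2 and 102 CPM in Vehicle, 47.7 in TAK-931-1 and 68.9 in TAK-931-2. Its groups did not overlap either, with a log2 fold change of −0.79 (SE 0.27, unadjusted p = 0.037), and −0.55 without TAK-931-1.

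Atm itself (chromosome 9, 53437122 to 53536671) differed in the other direction in TAK-931-1. It had 27.2 and 22.8 CPM in Vehicle, 31.9 in TAK-931-1 and 21.9 in TAK-931-2. With TAK-931-1 above both Vehicle libraries and TAK-931-2 below both, the log2 fold change was 0.11 (SE 0.31), and −0.19 without TAK-931-1. The genes of the MRE11-RAD50-NBN complex were below both Vehicle libraries in each TAK-931 library, at 0.763, 0.799 and 0.568 times the Vehicle mean in TAK-931-1 and 0.827, 0.883 and 0.607 times in TAK-931-2, in the order Mre11a, Rad50 and Nbn. For Nbn the Vehicle libraries were themselves apart, at 28.5 and 19.6 CPM. Trp53bp1, which encodes 53BP1 and favours end joining, was at 0.761 and 1.02 times the Vehicle mean; 22.1% of its exon bases are shared with Tubgcp4 on the opposite strand.

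The 11 genes of resection and homologous recombination held the widest spread. Of these, 3 were lower at an unadjusted p under 0.05, 5 were lower in both TAK-931 libraries and 2 higher in both, against 6.55%, 32.7% and 30% of all genes. The median log2 fold change was −0.20, and it turned to 0.018 without TAK-931-1. Rbbp8 encodes CtIP, which starts resection, and had 96.5 and 89.3 CPM in Vehicle, 38.3 in TAK-931-1 and 52.9 in TAK-931-2. The groups were well apart. The log2 fold change was −1.03 (SE 0.26, unadjusted p = 0.013), and −0.81 without TAK-931-1.

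Rad51c (chromosome 11, 87377607 to 87404954), a gene of homologous recombination, had the largest fitted difference of the 44. It had 27.2 and 22.4 CPM in Vehicle, 6.06 in TAK-931-1 and 10.3 in TAK-931-2. Both TAK-931 libraries were below both Vehicle libraries, with a log2 fold change of −1.60 (SE 0.41, unadjusted p = 0.015, adjusted p = 0.275 by edgeR) and −1.27 without TAK-931-1. DESeq2 gave Rad51c an adjusted p of 0.0266. With H2afx it made up the 2 of 44 genes that DESeq2 called lower at an adjusted p under 0.05, against 0.732% of its 17621 genes. Rad51ap1 (chromosome 6, 126923419 to 126939555), another gene of homologous recombination, had 44.8 and 45.6 CPM in Vehicle, 24.02 in TAK-931-1 and 29.4 in TAK-931-2. The log2 fold change was −0.76 (SE 0.23, unadjusted p = 0.027), and −0.62 without TAK-931-1.

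The breast cancer genes of this group did not share 1 pattern. Brca1 (chromosome 11, 101488764 to 101551955) had 52.8 and 48.4 CPM in Vehicle, 49.2 in TAK-931-1 and 88.1 in TAK-931-2. It was high only in the second of these, with a log2 fold change of 0.44 (SE 0.35), and 0.80 without TAK-931-1. Brca2 (chromosome 5, 150522621 to 150570146), which acts in homologous recombination after resection, had 38.6 and 35.8 CPM in Vehicle, 21.9 in TAK-931-1 and 35.7 in TAK-931-2, the last just under the lower Vehicle value. Its log2 fold change was −0.37 (SE 0.32), and −0.07 without TAK-931-1. Their bridging partner Palb2 had 21.0 and 17.0 CPM in Vehicle, 21.97 in TAK-931-1 and 28.6 in TAK-931-2. For Palb2, the fitted log2 fold change was 0.41 (SE 0.31), and 0.59 without TAK-931-1.

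Rad54l, the gene for the RAD54 translocase of homologous recombination, had 23.8 and 26.1 CPM in Vehicle, 37.5 in TAK-931-1 and 36.8 in TAK-931-2. It was the gene of the 44 with the highest log2 fold change, 0.57 (SE 0.23, unadjusted p = 0.060), and 0.56 without TAK-931-1. The TAK-931 libraries were near each other. Of its exon bases, 5.04% are shared with Lrrc41 on the opposite strand. The nuclease gene Exo1 and the recombination gene Xrcc3 were lower in TAK-931-1 and higher in TAK-931-2, at 0.487 and 0.651 times the Vehicle mean in the first and 1.26 and 1.32 times in the second. Xrcc2 was lower in both, at 0.403 and 0.838 times, and Bard1, the BRCA1 partner, was at 0.739 and 1.01 times.

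Of the 5 genes for helicases and junction nucleases, 1 was lower at an unadjusted p under 0.05 (6.55% of all genes) and 3 were lower in both TAK-931 libraries (32.7% of all genes). The median log2 fold change was −0.42, and −0.15 without TAK-931-1. Mus81 (chromosome 19, 5482840 to 5488336), which encodes the nuclease that cleaves stalled forks and joint molecules, had 49.1 and 51.2 CPM in Vehicle, 23.0 in TAK-931-1 and 27.4 in TAK-931-2. The groups were well apart and tight, with a log2 fold change of −0.99 (SE 0.23, unadjusted p = 0.0097, adjusted p = 0.275 by edgeR) and −0.88 without TAK-931-1. Its partner Eme1 had 39.4 and 27.3 CPM in Vehicle, 23.3 in TAK-931-1 and 42.0 in TAK-931-2. It did not share that pattern, with a log2 fold change of −0.03 (SE 0.40), or 0.33 without TAK-931-1, and 9.65% of its exon bases are shared with Lrrc59. The scaffold gene Slx4 had 48.8 and 50.5 CPM in Vehicle, 43.1 in TAK-931-1 and 90.5 in TAK-931-2. Fitted over all 4 libraries, its log2 fold change was 0.43 (SE 0.41), and 0.86 without TAK-931-1. The RecQ helicase genes Blm and Wrn were at 0.503 and 0.626 times the Vehicle mean in TAK-931-1 and 0.905 and 0.872 times in TAK-931-2.

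With all 4 libraries, the 5 Fanconi genes had negative log2 fold changes with a median of −0.38, and 0 had an unadjusted p under 0.05 (6.55% of all genes were lower and 11.6% higher). In both TAK-931 libraries 2 were lower than in both Vehicle libraries (32.7% of all genes). The negative median rested on TAK-931-1, without which the median was −0.0033 and Fancb (0.19) and Fancd2 (0.17) were positive. Fanca (chromosome 8, 123268244 to 123318576), the gene of a core complex subunit, had 58.3 CPM in each Vehicle library, 24.8 in TAK-931-1 and 46.9 in TAK-931-2. The fitted log2 fold change came to −0.70 (SE 0.37, unadjusted p = 0.126), and −0.32 without TAK-931-1. Of its exon bases, 17.1% are shared with Zfp276 on the opposite strand. Fancd2 (chromosome 6, 113531682 to 113596285) encodes the subunit that the core complex ubiquitinates. It had 35.0 and 36.9 CPM in Vehicle, 19.1 in TAK-931-1 and 40.7 in TAK-931-2, on both sides of Vehicle, with a log2 fold change of −0.27 (SE 0.43), and 0.17 without TAK-931-1. Fancm, a fork-remodelling translocase gene, was lower in both TAK-931 libraries, at 0.463 and 0.785 times the Vehicle mean. Fancb was at 0.470 and 1.14 times. Fanci, the partner of Fancd2, was at 0.538 and 1.00 times, and shares 8.62% of its exon bases with Polg.

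Parp1 and Polq, whose products sense breaks and join them by microhomology, were each low in TAK-931-1 alone. Parp1 (chromosome 1, 180568975 to 180601254) had 340.4 and 330 CPM in Vehicle, 153 in TAK-931-1 and 359.8 in TAK-931-2, with a log2 fold change of −0.39 (SE 0.47), and 0.10 without TAK-931-1. Polq (chromosome 16, 37011786 to 37095417) had 61.5 and 45.3 CPM in Vehicle, 28.3 in TAK-931-1 and 67.4 in TAK-931-2. The fitted log2 fold change came to −0.16 (SE 0.49), and 0.33 without TAK-931-1. Both changed sign when that library was left out, and their median went from −0.27 to 0.22.

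Leaving out TAK-931-1 changed which genes were called. With TAK-931-2 alone against the Vehicle pair, and its spread assumed to be that of the Vehicle libraries, edgeR called 12 of the 44 genes at an adjusted p under 0.05. Of these, 8 were lower (against 16.1% of all genes) and were the same 8 genes that had an unadjusted p under 0.05 with all 4 libraries. The other 4, Atrip, Brca1, Rad54l and Slx4, were higher (against 12.6% of all genes). With TAK-931-1 alone, 33 genes were lower (against 29.8%) and 1, Rad54l, was higher (against 28.2%). The fit without TAK-931-1 reused TAK-931-2 and both Vehicle libraries. Finding the same 8 genes in it was therefore largely built in and is not separate evidence. The share of the 44 genes called lower in that fit was also close to that of all genes. The median log2 fold change over the 44 genes was −0.20 without TAK-931-1 and −0.92 without TAK-931-2.

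Scaling to the plasma cell and J558 genes asked how the 44 transcripts stood relative to that list rather than to all RNA. This raised the median of all genes to 0.77 and that of the 44 genes to 0.21. The median of the 44 genes minus that of all genes was −0.56 on this scale and −0.41 with TMM. On it, 3 genes were lower in both TAK-931 libraries than in both Vehicle libraries (against 7.54% of all genes) and 7 were higher (against 29.8%). None was lower at an unadjusted p under 0.05 (against 0.0658%). The 8 genes with an unadjusted p under 0.05 on the TMM scale had negative log2 fold changes, between −1.03 for Rad51c and −0.06 for Rad51ap1. Their adjusted p by edgeR was 0.70 for Rad51c and higher for the others. With 3 genes of the 44 lower in both TAK-931 libraries, at most 3 of these 8 were. Rad54l had 1.35 on this scale, the highest of the 44.

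**Figure D5:**
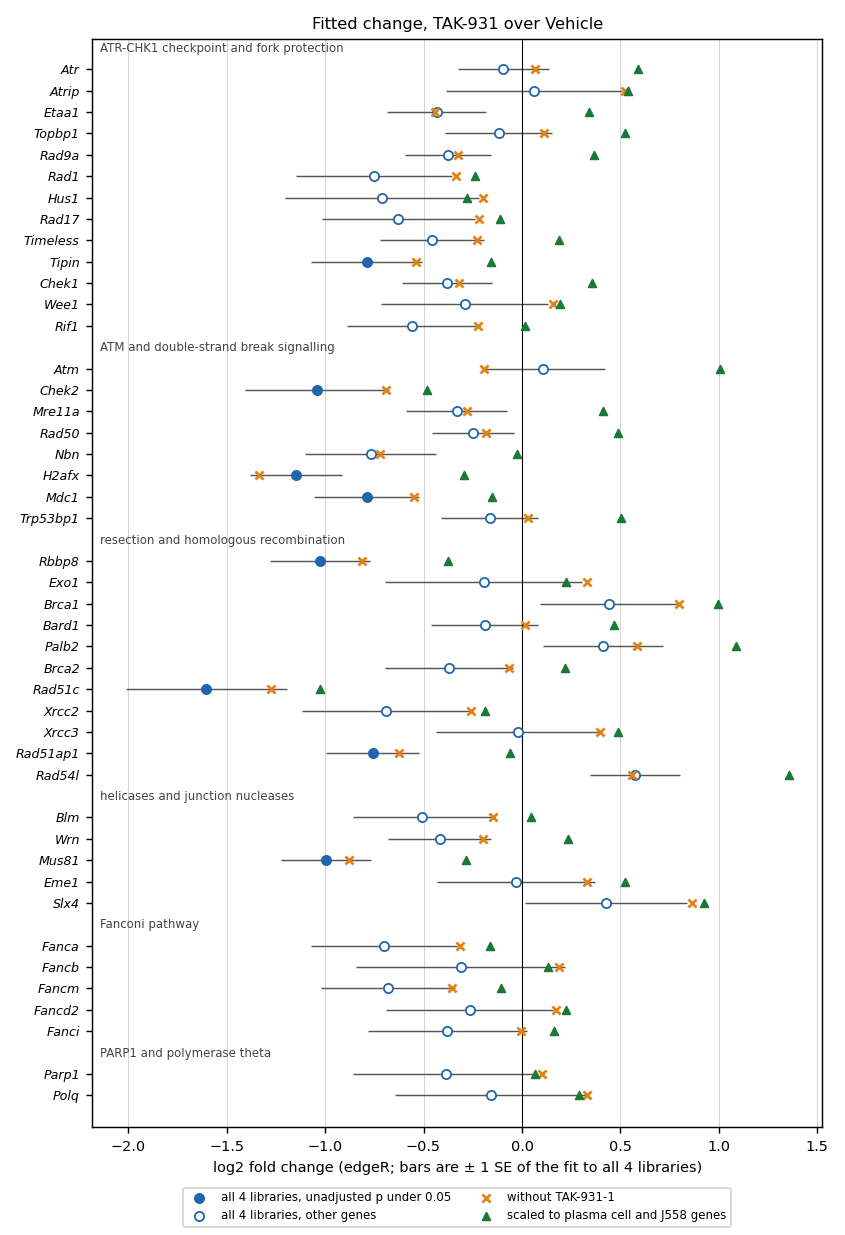
Fitted log2 fold change, TAK-931 over Vehicle, for each of the 44 genes by role. Circles with bars of ± 1 SE use all 4 libraries and are filled at an unadjusted p under 0.05, crosses leave out TAK-931-1, and triangles scale to the plasma cell and J558 genes. The 8 filled circles have crosses and triangles below 0, and most other genes have a triangle above 0. For the triangles of these 8 genes, the adjusted p by edgeR was 0.70 or more.

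Another 67 genes of replication stress and DNA repair, among them RPA, Fanconi, RecQ helicase, end joining and SMC5-SMC6 genes, were tested in the same fit. None was called at an adjusted p under 0.05, 10 were lower at an unadjusted p under 0.05 (against 6.55% of all genes) and 1 was higher (against 11.6%). Their median log2 fold change was −0.37, and −0.21 without TAK-931-1. In both TAK-931 libraries, 39 were lower than in both Vehicle libraries (against 32.7% of all genes) and 6 higher (against 30%). The lowest log2 fold changes among the 10 were those of the Fanconi core gene Fancc (−1.53, SE 0.47), Rad18, the ubiquitin ligase gene of damage tolerance (−1.32, SE 0.32), and the end joining genes Nhej1 (−1.21, SE 0.45) and Xrcc5 (−1.07, SE 0.35). Without TAK-931-1, in that order, they were −1.84, −1.03, −1.07 and −0.72. The gene that was higher, Dclre1c, encodes the end joining nuclease Artemis. It had 12.7 and 15.2 CPM in Vehicle, 43.8 in TAK-931-1 and 30.3 in TAK-931-2, with a log2 fold change of 1.41 (SE 0.32, unadjusted p = 0.0094) and 1.12 without TAK-931-1.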

How the data were processed

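Each library was 1 J558 allograft from a mouse given Vehicle or TAK-931 (2 libraries per group), and the series calls them independent samples. The authors deposited raw counts per gene, 1 table per library; the submitters' processing notes name STAR (2.6.1c), featureCounts and mm10, and the strand setting is not given in the sources used here. The lengths deposited with the counts were used for TPM. Among counts of 1 to 20, 17.93% to 23.87% were odd, and among the members' counts 43.18% to 52.27%. Whether both mates of a read pair were counted is not given in the sources used here, so a fit on halved counts was added after seeing the data.

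Genes were kept with filterByExpr (minimum count 10), scaled by TMM and tested with edgeR 4.0.16 (glmQLFit, robust, and glmQLFTest, two-sided) in R 4.3.3, with Benjamini-Hochberg adjustment over 13669 genes and a threshold of 0.05. An exact permutation test of 2 against 2 libraries cannot go below p = 0.333, so none was run on single genes. Each SE printed is the size of the edgeR log2 fold change divided by the square root of the test's F statistic. Log2 ratios to the Vehicle mean used a prior count of 2. Of the 44 genes, the counts ranged from 115 to 6166, above the floor of 3 counts; such floors cover counting error only. Alternatives were DESeq2 1.42.0, limma-voom 3.58.1, other scalings and filters, the replicate block and leaving out each library. The script was tested on simulated counts with the same dispersion in both groups, which the libraries here do not share. That test bears on the code only.

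The members and lists were chosen with earlier results of these data known. All 44 are named; full values are given for Atr, Chek1, Wee1, Clspn, Timeless, H2afx, Atm, Brca1, Brca2, Fancd2, Parp1, Polq, each gene at an unadjusted p under 0.05 and the gene with the largest change in each role, and for at most 4 other genes per direction of the wider list. Rad54l, Palb2, Slx4 and Eme1 were given per library after their values were seen. Counts within a group were compared only to look for a library deposited under both labels, and none was found (chi-square per degree of freedom 7.21 for Vehicle and 229 for TAK-931); these values would be raised if mates were counted separately, and say nothing of whether samples are independent. In the wider list, 2 genes carry older symbols (Fam35a and Wapal), matched through RefSeq synonyms.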

Additional observations from a re-analysis of the deposited data

How the results depend on the processing

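With no gene called by edgeR with all 4 libraries, DESeq2 called 2 of the 44 genes and 2 of the other 67 repair genes, against 1421 of 17621 genes (8.06%) in either direction. Leaving out 1 library at a time gave 0 to 34 of the 44 called and 0 to 48 of the 67; without TAK-931-1 the counts were 12 and 21, where 28.7% of all genes were called, and without TAK-931-2 58.1% of all genes were. The 8 genes lower at an unadjusted p under 0.05 (6.55% of all genes) became 5 with library size alone (4.49%), 5 under DESeq2 (4.52%), 5 with the replicate block (5.16%) and 0 with scaling to the plasma cell and J558 genes (0.0658%), and leaving out 1 library gave 0 to 37. H2afx, Rbbp8, Rad51c and Mus81 were among the genes left each time the number was 5. Of genes higher at an unadjusted p under 0.05, there was 1 with DESeq2 size factors in edgeR (12.4% of all genes). There was also 1 with at least 10 counts in every library (12.3%). Halved counts left 0 of the 44 called (0% of all genes) and 8 lower at an unadjusted p under 0.05 (6.87% of all genes). On leaving out 1 library, the lone library of a group was assumed to vary like the other group. The median log2 fold change of −0.38 was −0.92 to −0.20 on leaving out 1 library and 0.21 with plasma cell and J558 scaling, under which the median log2 ratio of TAK-931-1 was 0.45, and the genes lower and higher in both TAK-931 libraries numbered 3 and 7. On leaving out 1 library, 26 to 40 were lower and 2 to 16 higher in all remaining TAK-931 libraries; the 26 and 16 in TAK-931-2 alone stand against 44.4% and 42.3% of all genes, and the 40 in TAK-931-1 alone against 47.4%.

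Under plasma cell and J558 scaling, the log2 fold change turned positive for Atr (0.59), Timeless (0.19), Chek1 (0.36), Wee1 (0.19), Brca2 (0.22), Fancd2 (0.23), Parp1 (0.066), Polq (0.29) and Clspn (0.60). This scaling raised all genes, to a median of 0.77, and each of these genes stayed below that median. On leaving out 1 library, signs turned within −0.30 to 0.064 for Atr, −0.97 to 0.16 for Wee1, −0.19 to 0.33 for Atm, −0.065 to 0.80 for Brca1, −0.93 to 0.17 for Fancd2, −1.16 to 0.10 for Parp1, −0.94 to 0.33 for Polq and −0.30 to 0.11 for Clspn. In all, 240 of 260 single-gene values for 20 genes kept their sign, but most alternatives refit the same 4 libraries under similar scaling. The 20 values that turned were all under plasma cell and J558 scaling or on leaving out 1 library. The cause of these moves was not tested.

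The replicate numbers name samples only. How far a library lay from its group mean correlated between Vehicle and TAK-931 libraries of the same number at 0.0041 over all genes and 0.217 over the 44. The replicate block called 0 of the 44 genes and 144 of 13669 genes. Each group had 2 libraries, and the fit's standard errors rest on a TAK-931 pair that lay far apart.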
